A study of Mus musculus with 8 samples.

Results

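The genes described here are the neighbours of *Atm* on mouse chromosome 9, the gene that was disrupted in the mice under study. Genes of GRCm39 were taken if they overlapped chr9:43348097-63448236, which is the *Atm* gene (chr9:53348097-53448236) with 10 Mb on either side. *Atm* itself, 12 genes named in the rule, long noncoding and TEC genes (transcripts that await experimental testing), and the Rps, Rpl, Cox, Atp5 and Psm families were left out. The long noncoding RNA *9230112J17Rik* was kept by name, with its values already known, so that the main counts are given with and without it. The annotation held 750 genes in the window, the deposited table held 509 of them, and 322 were kept, out of 56691 genes in the table. Of the 322 genes, 221 were protein-coding and most of the others were pseudogenes or small RNAs. A filter on low counts left 185 for testing (177 of them protein-coding) among 22423 genes tested in all. The other 137 were not tested, and 51 of these had no count in any library.

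RNA was sequenced from the cerebellum of 4 *Atm*-WT mice (ATM +/+, libraries 2M, 7M, 13M and 32M) and 4 *Atm*-KO mice (ATM -/-, libraries 1M, 7F, 11M and 12M), 1 library per mouse, at 6 months of age. Per the study's methods, all came from the line B6;129S4-Atmtm1Bal/J, in which heterozygous parents gave *Atm*-KO mice and *Atm*-WT littermates, and the comparison asks what the loss of *Atm* does to the cerebellar transcriptome. Only the label 7F carries the letter F. Libraries held 65967130 to 88030300 counts, and values below are CPM, counts relative to the library total after TMM scaling, unless counts are named. *Atm* was at 67.6, 80, 79.4 and 59.0 CPM in the *Atm*-WT libraries and at 51.1, 44.3, 41.1 and 44.9 CPM in the *Atm*-KO libraries, with no overlap. Its log2 fold change was -0.66 (SE 0.103, adjusted p 0.0775), so transcripts of the gene were still counted in every *Atm*-KO library. The library *Atm*-KO 12M stood apart, with a summed level of brainstem and deep nucleus markers of 59.7 CPM against 128 to 172 CPM in the other libraries and of oligodendrocyte markers of 1930 CPM against 3060 to 4200 CPM. Of the brainstem list, *Hoxb5* and *Hoxb3* were under 0.1 CPM. Markers of the labelled tissue were abundant, with Purkinje cell markers summing to between 8050 and 10100 CPM and granule cell markers to between 3020 and 3820 CPM. Nuclear-retained RNAs, a list that includes *Malat1* and *Meg3*, summed to 4850 to 9640 CPM in *Atm*-WT libraries, against 10200 to 15800 CPM in *Atm*-KO libraries, and the part of cell make-up or RNA quality in the differences below was not tested.

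ATM is a protein kinase that is activated by DNA double-strand breaks and phosphorylates many proteins of the DNA damage response and the cell cycle, and its loss in humans causes ataxia-telangiectasia with degeneration of the cerebellum. Genes that lie near each other on a chromosome are inherited together, so that a targeted allele made in cells of one mouse strain and bred into another carries sequence of the first strain around it until recombination removes it. The strain name of this line gives a mixed B6 and 129S4 background. An effect of the loss of *Atm*, of linked sequence in the *Atm*-KO mice, and of the alignment of reads from linked sequence cannot be told apart in this design.

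Promoter sequences are shown for the nearest gene, *Npat*, which is read from the opposite strand to *Atm*, and for 4 genes on which the results turn. Each runs 5′ to 3′ from 250 bases before to 50 bases after a RefSeq start, taken from a GRCm38 table and placed on GRCm39 by an exact match. All 5 RefSeq starts fall inside the GENCODE gene bodies, so other starts upstream are not covered. Capitals mark GC boxes (GGGCGG) and CCAAT boxes (CCAAT) on either strand, and none of these windows held TATAAA or the heat shock element core GAANNTTC.
Npat, chr9:53448097-53448396, plus strand: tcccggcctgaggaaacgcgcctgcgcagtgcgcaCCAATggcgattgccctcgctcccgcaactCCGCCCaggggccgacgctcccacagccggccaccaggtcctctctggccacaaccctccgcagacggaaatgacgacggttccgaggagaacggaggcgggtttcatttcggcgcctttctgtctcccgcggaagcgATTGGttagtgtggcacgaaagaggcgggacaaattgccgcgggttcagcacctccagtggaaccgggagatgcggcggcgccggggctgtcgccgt
AI593442, chr9:52590688-52590987, minus strand: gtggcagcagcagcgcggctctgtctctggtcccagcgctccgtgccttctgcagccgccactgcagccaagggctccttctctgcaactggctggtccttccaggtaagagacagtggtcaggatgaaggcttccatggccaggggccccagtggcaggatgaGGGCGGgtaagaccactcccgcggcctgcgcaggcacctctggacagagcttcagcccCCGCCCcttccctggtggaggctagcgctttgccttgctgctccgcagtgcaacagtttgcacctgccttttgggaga
Insyn1, chr9:58395636-58395935, plus strand: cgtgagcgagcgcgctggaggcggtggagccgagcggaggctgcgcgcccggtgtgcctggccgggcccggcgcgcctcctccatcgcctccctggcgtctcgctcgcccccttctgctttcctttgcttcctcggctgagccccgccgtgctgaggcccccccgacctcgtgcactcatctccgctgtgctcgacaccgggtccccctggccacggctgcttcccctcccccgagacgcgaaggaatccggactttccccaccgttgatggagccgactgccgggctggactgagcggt
Dnaja4, chr9:54606317-54606616, plus strand: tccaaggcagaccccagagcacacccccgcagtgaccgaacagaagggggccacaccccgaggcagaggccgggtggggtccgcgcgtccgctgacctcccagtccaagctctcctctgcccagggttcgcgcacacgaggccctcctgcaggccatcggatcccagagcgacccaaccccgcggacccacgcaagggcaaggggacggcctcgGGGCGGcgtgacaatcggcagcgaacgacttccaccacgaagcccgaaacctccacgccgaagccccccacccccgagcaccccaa
9230112J17Rik, chr9:60453116-60453415, minus strand: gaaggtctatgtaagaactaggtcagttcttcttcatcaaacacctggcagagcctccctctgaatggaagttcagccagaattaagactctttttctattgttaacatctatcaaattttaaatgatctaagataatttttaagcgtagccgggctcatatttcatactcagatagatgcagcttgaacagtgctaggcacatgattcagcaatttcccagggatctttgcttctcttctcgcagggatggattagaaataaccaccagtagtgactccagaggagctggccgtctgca
The RefSeq starts of *Atm* and *Npat* lay 376 bases apart, and the GENCODE gene bodies were 11 bases apart. The *Npat* window held 1 GC box and 2 CCAAT boxes at 66.7% G and C, and it contains the GENCODE 5′ end of *Atm*. *AI593442* had 2 GC boxes, *Dnaja4* had 1 and *Insyn1* had none, although the *Insyn1* window was the richest in G and C at 72.3% with 35 CpG. In contrast, the window of *9230112J17Rik* was 42% G and C with 4 CpG and held none of the motifs. A GC box was found in 61.2% of 170 promoters of 140 of the tested genes near *Atm* and in 35.9% of all 32544 promoters of the table. The shares were 35.3% and 37.4% for CCAAT, 7.06% and 13.6% for TATAAA, and 4.71% and 7.89% for GAANNTTC. The median number of CpG was 18.5 in these promoters and 7 in all. These are descriptions of letters, not of binding, and the table of all promoters holds gene classes that are left out here. It was also not limited to genes that passed the filter on low counts, as the genes near *Atm* were. A part of that filter in these shares was not tested.

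Of the 185 tested genes near *Atm*, 3 passed both thresholds, namely an absolute log2 fold change above 0.5 together with an adjusted p below 0.05. The p-values came from the quasi-likelihood test of edgeR and were adjusted by the Benjamini-Hochberg method across the 22423 genes. *AI593442* rose in *Atm*-KO cerebellum and *Insyn1* fell, and the third was *9230112J17Rik*, which was lower and had been kept by name. This is 1.62% of the genes near *Atm* against 0.0178% of all genes tested, of which 4 passed in all. Without *9230112J17Rik* it was 2 of 184 (1.09%). An earlier report on these data had already named all 3 genes, so these shares describe known genes and are not a new result. Among genes of the same classes, 0 of 733 on chromosome 9 beyond 10 Mb and 0 of 15983 on other chromosomes passed both thresholds by edgeR, where 140 and 2901 had an unadjusted p under 0.05. The DESeq2 test gave 14 of 181 (7.73%), against 4.80% of the 20724 genes it adjusted.

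*AI593442* (chr9:52584337-52591785, minus strand) is a protein-coding gene with no settled name, 0.756 Mb from *Atm*. It stood at 71.8, 75.3, 79.4 and 78.0 CPM in the 4 *Atm*-WT libraries and at 108, 106, 119 and 104 CPM in the 4 *Atm*-KO libraries. Every *Atm*-KO library was above every *Atm*-WT library, and the gap between the genotypes was wider than the range within either. The log2 fold change was 0.52 (SE 0.0637, adjusted p 0.0279). The adjusted p ranged from 7.73e-08 to 0.164 over 13 alternatives and was above 0.05 without *Atm*-WT 2M (0.135), *Atm*-WT 7M (0.106), *Atm*-KO 1M (0.164) or *Atm*-KO 11M (0.113), while the log2 fold change stayed between 0.49 and 0.56.

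*Insyn1* (chr9:58395367-58409884, plus strand) encodes inhibitory synaptic factor 1, a protein of the postsynaptic side of GABAergic synapses, and lies 4.95 Mb from *Atm*. Its values were 125, 122, 120 and 130 CPM in the *Atm*-WT libraries. In the *Atm*-KO libraries they were 85.8, 94.0, 83.9 and 84.9 CPM, so that the highest *Atm*-KO library was below the lowest *Atm*-WT library. The log2 fold change was -0.51 (SE 0.0602, adjusted p 0.0279). Over the alternatives the log2 fold change was between -0.53 and -0.48 and the adjusted p between 2.57e-08 and 0.164, above 0.05 without *Atm*-WT 2M (0.135), *Atm*-WT 7M (0.0793), *Atm*-KO 1M (0.164) or *Atm*-KO 11M (0.126). The log2 fold change was -0.49 without *Atm*-WT 32M (adjusted p 0.0315) and with genes of at least 10 counts in every library (adjusted p 0.0270), just short of the fold threshold.

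*9230112J17Rik* (chr9:60431250-60469770, minus strand) is a long noncoding RNA of unknown role, placed 6.98 Mb away. *Atm*-WT libraries gave 91, 67, 62 and 65 counts of it, and *Atm*-KO libraries gave 4, 4, 2 and 4. The gene was thus near the limit of detection in every *Atm*-KO library and low in *Atm*-WT ones, at 0.723 to 1.20 CPM. The log2 fold change was -4.23 (SE 0.380). The gene was kept for these values and passed the filter on low counts through the *Atm*-WT libraries alone, so that its values are a description and its place among the called genes was fixed by that choice. Exons of 2 genes on the opposite strand, *Gm49334* and *Gm51679*, covered 19.4% of its exon bases, and reads of the 2 strands may not have been counted apart.

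**Figure D1:**
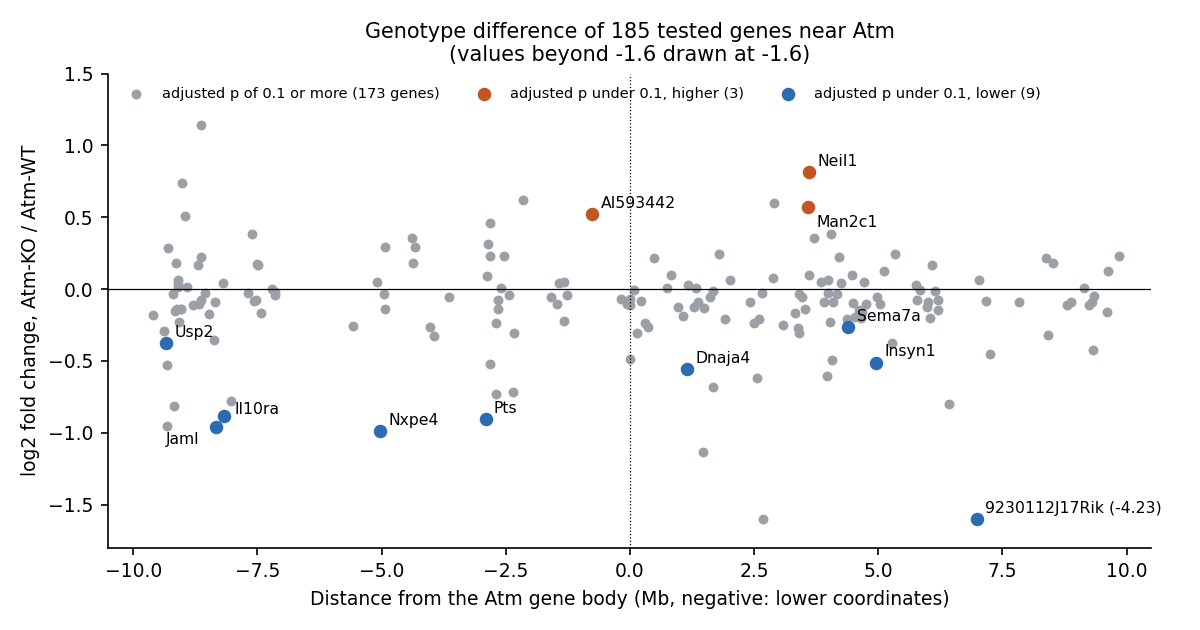
Log2 fold change (*Atm*-KO over *Atm*-WT) of the 185 tested genes by distance from the *Atm* gene body in Mb, negative towards lower coordinates; each point is 1 gene, with the 3 higher and 9 lower genes at an adjusted p under 0.1 in colour. Values beyond -1.6 are drawn at -1.6, and the coloured genes are spread from 0.756 Mb to 9.34 Mb on both sides of *Atm*.

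At an adjusted p under 0.1, 12 of the 185 genes differed between genotypes (6.49%, against 1.90% of all genes tested), and 11 of 184 without *9230112J17Rik* (5.98%). Of the 12, 3 were higher and 9 were lower in *Atm*-KO mice, where 1.25% of all genes were higher and 0.647% lower. Among genes of the same classes, the same count was 13 of 733 (1.77%, 4 higher and 9 lower) on the rest of chromosome 9. On other chromosomes it was 278 of 15983 (1.74%, 159 higher and 119 lower). Over the other autosomes, the share ran from 1.04% to 2.74%. The count at this threshold moved with the libraries and the tool over the whole series. The 426 genes became 1 without *Atm*-KO 1M and 1472 (6.44%) without *Atm*-KO 7F, where 15 of 187 genes near *Atm* passed (8.02%). DESeq2 gave 2571 genes (12.4%), with 30 of 181 near *Atm* (16.6%), so that the genes near *Atm* stood closer to the background than with edgeR. All 12 genes were without overlap between the 4 *Atm*-WT and the 4 *Atm*-KO libraries.

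For the 9 genes with an adjusted p between 0.05 and 0.1, all of which follow, the call rested on single libraries and on the tool. None of the 9 was under 0.1 without *Atm*-WT 2M, *Atm*-WT 7M, *Atm*-KO 1M or *Atm*-KO 11M, 1 was without *Atm*-WT 32M and 1 with limma voom, 5 were without *Atm*-WT 13M and 4 without *Atm*-KO 12M. *Dnaja4*, *Pts*, *Man2c1*, *Neil1*, *Nxpe4*, *Il10ra* and *Jaml* were past both thresholds with DESeq2 and with no filter on low counts. Both settings called more genes over the whole series, 4.80% and 1.19% of all genes against 0.0178% in the main fit. The adjusted p ran from 5.45e-06 to 0.263 for *Dnaja4* and reached 0.293 for each of the other 8 genes, with 2.56e-06 for *Pts* as the lowest value, with the highest value without *Atm*-KO 1M.

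*Dnaja4* encodes an Hsp40 co-chaperone that hands unfolded proteins to Hsp70, 1.16 Mb from *Atm*. It was at 44.4, 52.0, 42.7 and 44.4 CPM in *Atm*-WT and at 30.2, 31.1, 29.6 and 33.7 CPM in *Atm*-KO libraries. The 4 *Atm*-KO values lay within a narrow range below all *Atm*-WT values, with a log2 fold change of -0.56 (SE 0.0787, adjusted p 0.0513). On the opposite strand, exons of *Skic8* and *Gm69190* covered 26.0% of its exon bases, so its counts are uncertain.

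*Pts*, 6-pyruvoyl-tetrahydropterin synthase, makes an intermediate of tetrahydrobiopterin, the cofactor for the synthesis of dopamine and serotonin. Its levels were 13.4, 11.3, 8.97 and 13.2 CPM in *Atm*-WT and 5.78, 5.74, 6.19 and 7.30 CPM in *Atm*-KO libraries. The genotypes did not overlap, with *Atm*-WT 13M and *Atm*-KO 12M nearest to each other, and the log2 fold change was -0.90 (SE 0.147, adjusted p 0.0877). *Usp2* encodes a deubiquitinase and lies 9.34 Mb from *Atm*, near the end of the window. It was at 116, 119, 119 and 95.7 CPM in *Atm*-WT and at 90.2, 89.4, 74.0 and 92.5 CPM in *Atm*-KO libraries, with *Atm*-WT 32M only just above the *Atm*-KO range (log2 fold change -0.38, SE 0.0906, adjusted p 0.0947).

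*Man2c1*, a cytosolic alpha-mannosidase that trims free oligosaccharides, and *Neil1*, a DNA glycosylase that removes oxidised bases in base excision repair, lie next to each other 3.6 Mb from *Atm*. They are transcribed towards each other with 66 bases between their ends. *Man2c1* was at 29.2, 32.6, 31.3 and 26.0 CPM in *Atm*-WT and at 46.9, 37.8, 41.9 and 50.6 CPM in *Atm*-KO libraries. *Neil1* was at 4.35, 3.95, 5.24 and 3.55 CPM in *Atm*-WT and at 8.31, 6.07, 6.81 and 8.85 CPM in *Atm*-KO libraries. Both genes were highest in *Atm*-KO 1M and 12M, the libraries with the highest sums of nuclear-retained RNAs (15800 and 15500 CPM), whose part in these values was not tested. Their log2 fold changes were 0.57 (SE 0.101) and 0.81 (SE 0.168), each with an adjusted p of 0.0931.

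*Il10ra*, the ligand-binding subunit of the interleukin-10 receptor, and *Jaml*, an adhesion molecule of leukocytes, lie 0.145 Mb apart at more than 8 Mb from *Atm*. *Il10ra* was at 3.77, 3.90, 3.04 and 3.87 CPM in *Atm*-WT and at 1.84, 1.72, 2 and 2.37 CPM in *Atm*-KO libraries. *Jaml* was at 9.30, 6.30, 8.12 and 6.30 CPM in *Atm*-WT and at 3.71, 3.91, 2.89 and 4.93 CPM in *Atm*-KO libraries. Neither gene overlapped between genotypes, with log2 fold changes of -0.88 (SE 0.173) and -0.96 (SE 0.190) and adjusted p of 0.0931 for both. Exons of *Gm10684* on the opposite strand covered 19.8% of those of *Jaml*. *Il10ra* is expressed in microglia, and the 6 microglial markers summed to 130 to 171 CPM in *Atm*-WT and 101 to 133 CPM in *Atm*-KO libraries, with 4 of 6 lower at an unadjusted p under 0.05 and a median of -0.34 on the log2 scale. The part of this in the value of *Il10ra* was not tested, and in bulk tissue fewer cells of a type and less RNA per cell cannot be told apart.

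*Nxpe4*, a gene of the neurexophilin and PC-esterase family 5.03 Mb from *Atm*, was at 10.7, 10.4, 8.21 and 11.5 CPM in *Atm*-WT and at 5.27, 4.29, 4.13 and 6.91 CPM in *Atm*-KO libraries. This gave the most negative log2 fold change of the 8 protein-coding genes that were lower at an adjusted p under 0.1, -0.99 (SE 0.177, adjusted p 0.0931). *Sema7a*, a membrane-anchored semaphorin that promotes axon growth, was at 223, 208, 218 and 227 CPM in *Atm*-WT and at 188, 192, 174 and 175 CPM in *Atm*-KO libraries. The genotypes did not overlap, though the lowest *Atm*-WT and the highest *Atm*-KO library were close (log2 fold change -0.27, SE 0.0599, adjusted p 0.0938). Per kilobase of exon, *Sema7a* had the highest *Atm*-WT level of the tested genes near *Atm*, 66 CPM per kb, ahead of *Ncam1* at 52.0 CPM per kb, *Anp32a* at 49.6 CPM per kb and *Ddx6* at 48.8 CPM per kb.

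**Figure D2:**
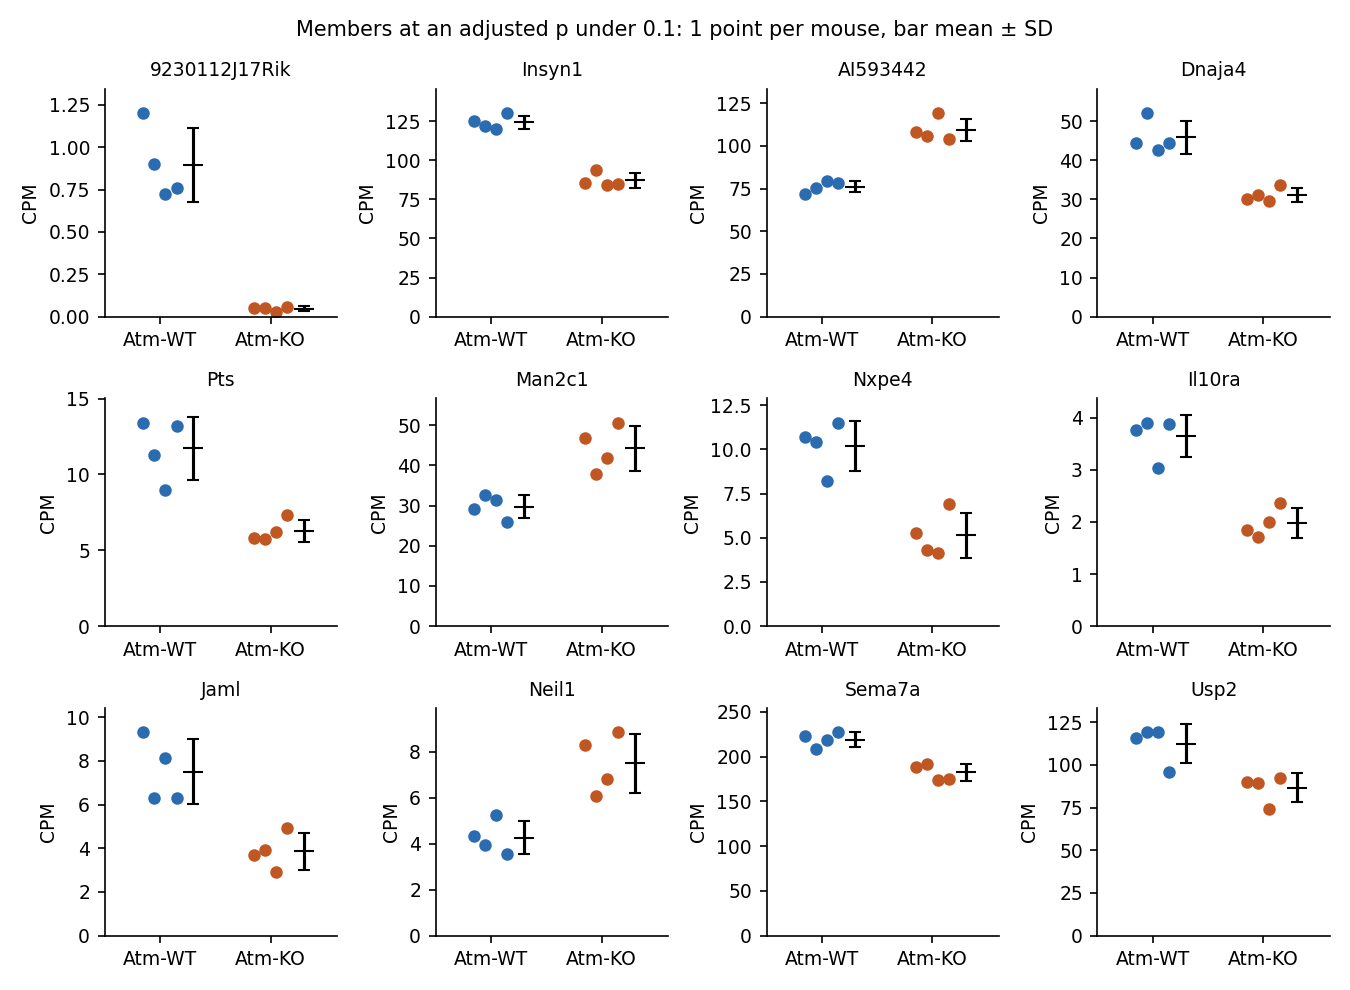
CPM of the 12 genes at an adjusted p under 0.1, 1 point per mouse, with the mean and SD of the 4 *Atm*-WT and the 4 *Atm*-KO mice beside the points and each axis starting at 0. In each panel the *Atm*-WT and *Atm*-KO points do not overlap, with the widest relative gap for *9230112J17Rik*.

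In a wider count, 55 of the 185 genes had an unadjusted p under 0.05 (29.7%, 19 higher and 36 lower, and 54 of 184 or 29.3% without *9230112J17Rik*), against 20.2% of all genes tested, 19.1% on the rest of chromosome 9 and 18.2% on other chromosomes. Genotypes did not overlap in 34 genes (18.4%, 12 higher and 22 lower, and 33 of 184 or 17.9% without *9230112J17Rik*), against 11.6%, 11.9% and 11%. There 1450, 37 and 789 genes were higher and 1149, 50 and 977 were lower. In contrast, the typical size of the differences was not larger near *Atm*, with a median absolute log2 fold change of 0.15 in these genes, 0.15 on other chromosomes and 0.18 over all genes tested. Most of the genes near *Atm* had a negative log2 fold change, 125 of 185 (67.6%), as did 60.4% of genes of the same classes on other chromosomes. Medians were -0.08 near *Atm*, -0.05 on other chromosomes and -0.02 over all genes. Together the 322 genes took 1.13% to 1.15% of all counts in *Atm*-WT libraries, against 1.11% to 1.14% in *Atm*-KO libraries.

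The genes with a difference were spread over the window. At an adjusted p under 0.1 there was 1 of 16 genes within 1 Mb (6.25%), 1 of 25 between 1 and 2.5 Mb (4%), 5 of 63 between 2.5 and 5 Mb (7.94%) and 5 of 81 between 5 and 10 Mb (6.17%). The last bin holds *9230112J17Rik*, without which it was 4 of 80 (5%), with 20% of genes without overlap and 30% at an unadjusted p under 0.05. Further along chromosome 9 the counts were 2 of 153 between 10 and 20 Mb (1.31%), 2 of 232 between 20 and 40 Mb (0.862%) and 9 of 348 beyond 40 Mb (2.59%). Genotypes did not overlap in 12.5%, 12%, 19.0% and 21.0% of the genes in the 4 bins up to 10 Mb, and in 14.4%, 6.47% and 14.4% of those in the 3 bins beyond. The unadjusted count was 2 of 16 in the nearest bin (12.5%), 24.0%, 34.9% and 30.9% in the next 3, and 19.0%, 15.1% and 21.8% beyond 10 Mb. By side, there were 6 of 84 genes towards lower coordinates (7.14%) and 6 of 101 towards higher coordinates (5.94%) at an adjusted p under 0.1, the latter 5 of 100 without *9230112J17Rik* (5%). The median absolute log2 fold change was 0.11 within 1 Mb, 0.11 between 1 and 2.5 Mb, 0.21 between 2.5 and 5 Mb and 0.14 between 5 and 10 Mb. No test of a trend with distance was made, and bins of 16 to 81 genes hold few called genes each.

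**Figure D3:**
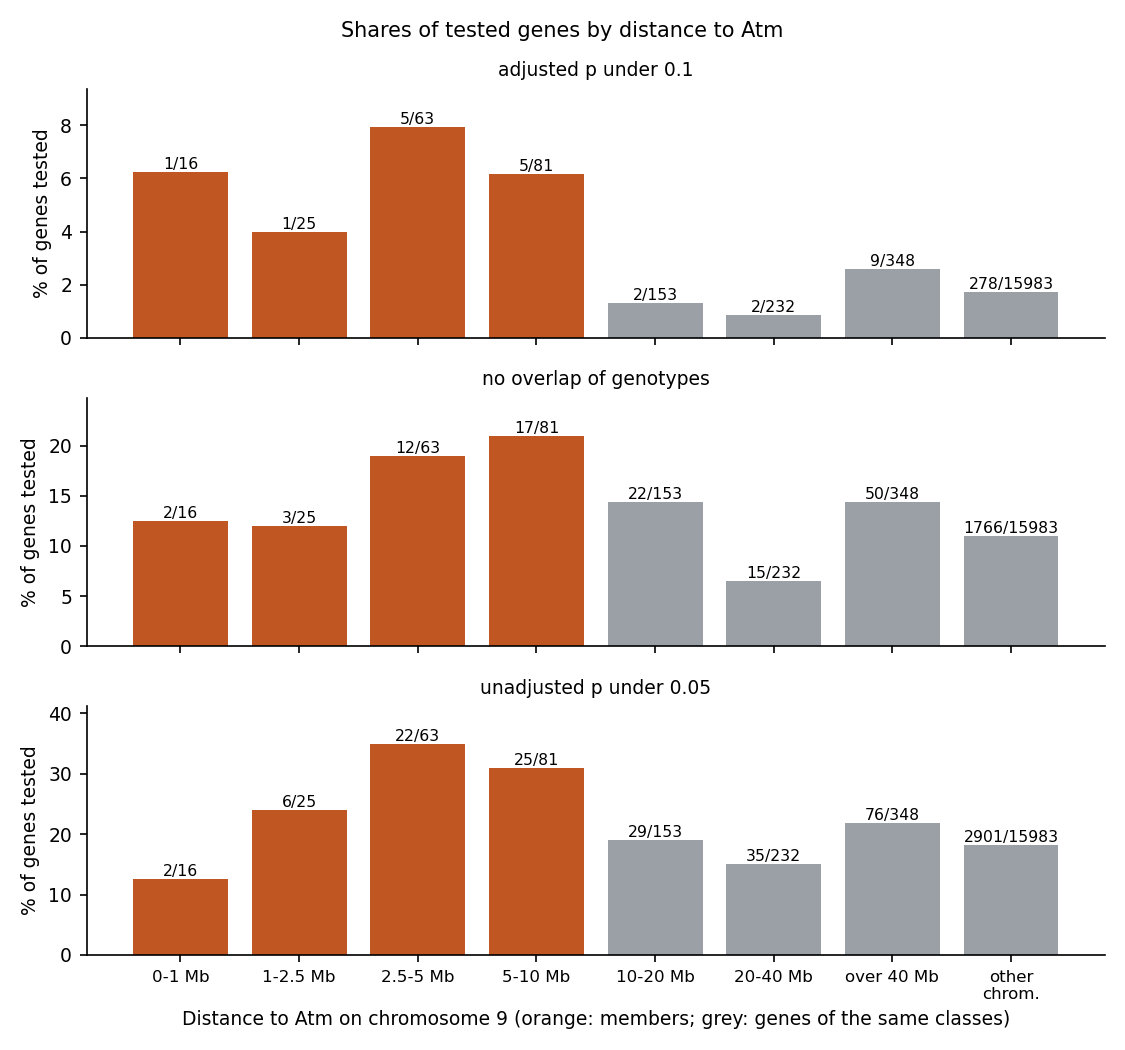
Share of tested genes at an adjusted p under 0.1 (top), without overlap between genotypes (middle) and at an unadjusted p under 0.05 (bottom), by distance to *Atm* on chromosome 9 and for other chromosomes; labels give counts, orange bars are the genes near *Atm* and grey bars are genes of the same classes elsewhere. In the top panel each bin up to 10 Mb stands at 4% to 7.94%, and each bin beyond at 0.862% to 2.59%.

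Of the 16 tested genes within 1 Mb, 2 had genotypes that did not overlap, *AI593442* and *Elmod1*. This is 12.5%, close to the 11.6% of all genes tested. *Npat*, a coactivator of histone gene transcription, was at 58.9, 62.8, 66.1 and 56.6 CPM in *Atm*-WT and at 58.3, 58.8, 57.0 and 52.3 CPM in *Atm*-KO libraries. The genotypes overlapped (log2 fold change -0.11, SE 0.0692, adjusted p 0.394), so that no difference was detectable in the gene that shares its 5′ region with *Atm*. Exons of *Acat1* on the opposite strand covered 22.7% of those of *Npat*. *Acat1* itself, the mitochondrial acetoacetyl-CoA thiolase, had a log2 fold change of -0.07 (SE 0.103), and *Cul5*, the scaffold of a ubiquitin ligase, had -0.01 (SE 0.0674).

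*Elmod1* encodes a GTPase-activating protein for ARF-family proteins and lies 369 kb from *Atm*. It was at 150, 144, 145 and 173 CPM in *Atm*-WT and at 120, 139, 130 and 120 CPM in *Atm*-KO libraries. The lowest *Atm*-WT library was above the highest *Atm*-KO library, with a log2 fold change of -0.27 (SE 0.0771, adjusted p 0.117). Towards lower coordinates, the RNA helicase gene *Ddx10*, the Rab27 effector gene *Exph5* and the Notch glucosyltransferase gene *Poglut3* had log2 fold changes of -0.07, -0.11 and -0.10. Towards higher coordinates, *Slc35f2* had -0.08, *Dmxl2*, which encodes a subunit of the rabconnectin complex that acts on the vacuolar proton pump, had 0.10, and *Cib2*, a calcium and integrin binding protein, had -0.13. The uncharacterised gene *4930550C14Rik*, the Rab GTPase gene *Rab39*, the calcium pump regulator *Sln*, *Tnfaip8l3* and *Gldn*, the gliomedin of nodes of Ranvier, were all at or under 1.59 CPM in every library. Their log2 fold changes ranged from -0.48 to 0.22 with SE of 0.304 to 0.497, so that differences of that size were not detectable in these libraries.

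**Figure D4:**
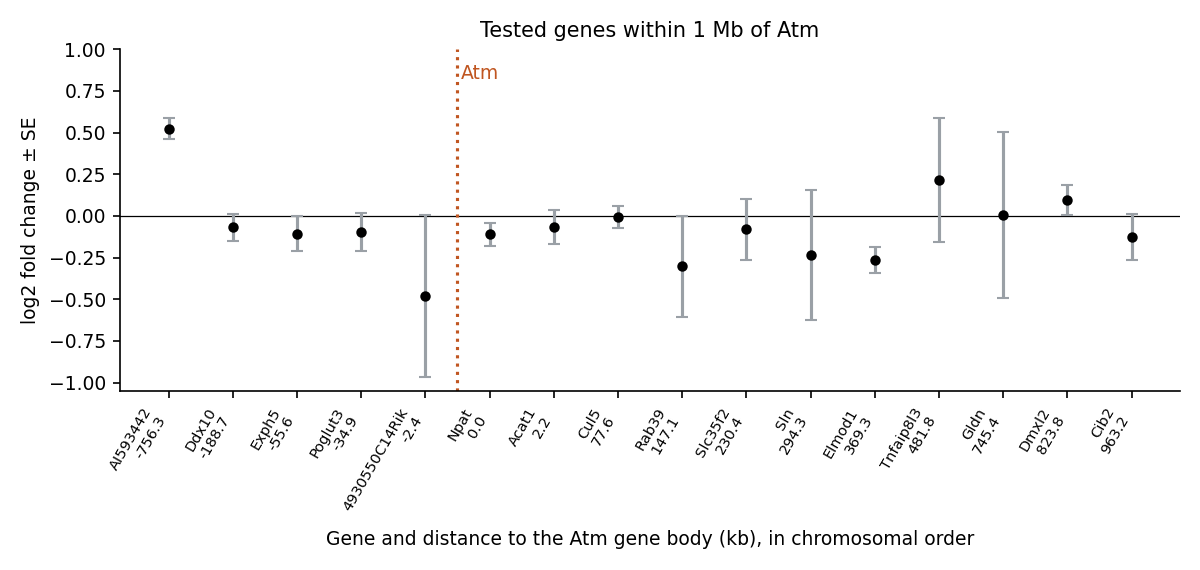
Log2 fold change with its standard error for the 16 tested genes within 1 Mb of *Atm*, in chromosomal order with the distance in kb under each name; the dotted line is the place of *Atm*. *AI593442* (0.52) and *Elmod1* (-0.27) stand away from 0, *Npat* and *Acat1* next to *Atm* lie at -0.11 and -0.07, and the wide bars belong to genes of low counts.

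Lists by role, 9 in all and written with earlier results of these data known, held 102 of the 322 genes and 87 of the 185 tested ones, so that 98 tested genes, among them *AI593442*, *Dnaja4*, *Neil1*, *Il10ra* and *Nxpe4*, were in no list. Counts in the lists stand against 1.90% of all genes at an adjusted p under 0.1, 20.2% at an unadjusted p under 0.05, and negative log2 fold changes in 67.6% of the tested genes near *Atm* and 60.4% of genes of the same classes on other chromosomes. In the adhesion and guidance list, 13 of 15 genes had a negative log2 fold change (median -0.18), with 2 lower (*Sema7a* and *Jaml*) and 0 higher at an adjusted p under 0.1 by edgeR. At an unadjusted p under 0.05, 5 were lower and 2 were higher. Among the latter was *Neo1*, neogenin, a receptor for netrins and repulsive guidance molecules, at 161, 182, 165 and 163 CPM in *Atm*-WT and 189, 202, 212 and 191 CPM in *Atm*-KO libraries (log2 fold change 0.24, adjusted p 0.107). The other was *Mcam*, an adhesion molecule of vessel walls, at 29.5 to 37.0 CPM in *Atm*-WT and 39.5 to 41.0 CPM in *Atm*-KO libraries (log2 fold change 0.28, adjusted p 0.110), while the mural cell markers summed to 171 to 217 CPM and 129 to 177 CPM. *Ncam1*, the neural cell adhesion molecule and the list's most abundant gene, ranged from 433 to 479 CPM and from 373 to 480 CPM, with overlap (log2 fold change -0.06, adjusted p 0.743).

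Of the receptor and channel list, 5 of 9 genes were tested and 5 of 5 had a negative log2 fold change (median -0.37), with 0 at an adjusted p under 0.1 by edgeR and 2 at an unadjusted p under 0.05. *Fxyd6*, a regulator of the sodium pump, was at 64.3, 58.3, 43.5 and 75.0 CPM in *Atm*-WT and at 30.7, 28.1, 31.2 and 50.7 CPM in *Atm*-KO libraries. The library *Atm*-KO 12M alone reached into the *Atm*-WT range, and the log2 fold change was -0.78 (SE 0.195, adjusted p 0.1, from 0.021 with no filter on low counts to 0.294 without *Atm*-KO 1M). 2 more genes of this list were picked after their values were seen. *Chrna3*, a nicotinic acetylcholine receptor subunit 1.47 Mb from *Atm*, was at 1.90, 1.96, 2.17 and 3.71 CPM in *Atm*-WT and 1.40, 1.19, 1.39 and 0.444 CPM in *Atm*-KO libraries (log2 fold change -1.13, SE 0.348, adjusted p 0.127). *Drd2*, the dopamine D2 receptor, was at 4.09 to 5.47 CPM in 7 libraries and at 0.622 CPM in *Atm*-KO 12M, which is also the library with the lowest brainstem and deep nucleus markers.

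*Insyn1* was the called gene of the synapse and scaffold list, in which 7 of 9 genes had a negative log2 fold change (median -0.09). In this list 4 genes were lower and 1 was higher at an unadjusted p under 0.05. *Myo9a*, an unconventional myosin, was its most abundant gene and had a log2 fold change of -0.07 (adjusted p 0.604). A list of signalling enzymes, written for kinases, phosphatases and ubiquitin enzymes, also holds *Pafah1b2* and *Ppcdc*, a decarboxylase of coenzyme A synthesis, which are none of these. In it 10 of 13 genes were negative (median -0.04), with *Usp2* lower at an adjusted p under 0.1. The unadjusted p was under 0.05 for 3 lower and 2 higher genes. *Usp28*, a deubiquitinase that acts in the DNA damage response, was at 46.0, 49.8, 49.0 and 37.4 CPM in *Atm*-WT and at 58.5, 53.0, 51.8 and 69.6 CPM in *Atm*-KO libraries, with no overlap (log2 fold change 0.35, SE 0.111, adjusted p 0.133). *Rnf26*, an endoplasmic reticulum ubiquitin ligase, had a log2 fold change of -0.52 (adjusted p 0.116, from 0.014 with DESeq2 to 0.312), but 65.2% of its exon bases were shared with other genes. *Pafah1b2*, a catalytic subunit of platelet-activating factor acetylhydrolase and the list's most abundant gene, had -0.17 (adjusted p 0.227).

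The metabolic list had 12 of 16 genes tested, 7 negative and 5 positive (median -0.08), with *Pts* as its gene at an adjusted p under 0.1. At an unadjusted p under 0.05, 4 were lower and 0 were higher. *Acsbg1*, an acyl-CoA synthetase found in astrocytes, was at 218, 217, 212 and 219 CPM in *Atm*-WT and at 175, 202, 200 and 183 CPM in *Atm*-KO libraries. The genotypes did not overlap (log2 fold change -0.19, SE 0.0629, adjusted p 0.144), the astrocyte and Bergmann glia markers summed to 2120 to 2300 CPM and 1920 to 2130 CPM, and exons of *Idh3a* covered 28.6% of those of *Acsbg1*. In the secretory and glycosylation list, 11 of 16 were negative (median -0.09) and *Man2c1* was the gene at an adjusted p under 0.1. The unadjusted p was under 0.05 for 3 lower and 2 higher genes. *Glce*, the epimerase that shapes heparan sulfate, was at 85.3 to 93.9 CPM in *Atm*-WT and 98.9 to 111 CPM in *Atm*-KO libraries (log2 fold change 0.18, adjusted p 0.152), and *Exph5*, the most abundant of this list, had overlapping genotypes.

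For regulators of transcription, 5 of 8 were negative (median -0.06) and 0 were at an adjusted p under 0.1 by edgeR, with 2 at an unadjusted p under 0.05. *Parp6*, an ADP-ribosyltransferase, was at 78.1 to 85.6 CPM in *Atm*-WT and 88.7 to 98.1 CPM in *Atm*-KO libraries (log2 fold change 0.17, adjusted p 0.158). *Kmt2a*, a histone H3 lysine methyltransferase, had -0.03 (adjusted p 0.919). RNA processing genes were negative in 7 of 9 (median -0.07) with 0 at an adjusted p under 0.1 by edgeR and 2 at an unadjusted p under 0.05, one of them *Ulk3*, a kinase that was placed in this list (log2 fold change 0.39, adjusted p 0.150). *Ddx6*, an RNA helicase of processing bodies, had -0.11 (adjusted p 0.364). The 4 apolipoprotein genes of the window were not tested for low counts.

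Of the remaining genes without overlap that the naming rule gave, *Thsd4*, a protein of the extracellular matrix, had a log2 fold change of -0.80 (adjusted p 0.104). *Cenatac*, a factor of the minor spliceosome, had 0.74 (adjusted p 0.104), with 24.8% of its exon bases shared with *Rps25*. *Cep164*, a protein of the centriole that anchors cilia, had 0.38 (adjusted p 0.152), and *1700017B05Rik*, 0.105 Mb from *Neil1*, had 0.35 (adjusted p 0.125). All 4 had an unadjusted p under 0.05. Like 7 of the genes at an adjusted p between 0.05 and 0.1, *Thsd4* and *Cenatac* were past both thresholds with DESeq2 and with no filter on low counts, over ranges of the adjusted p of 0.00407 to 0.293 and 0.00449 to 0.294. These 2 settings called 4.80% and 1.19% of all genes, against 0.0178% in the main fit.

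**Figure D5:**
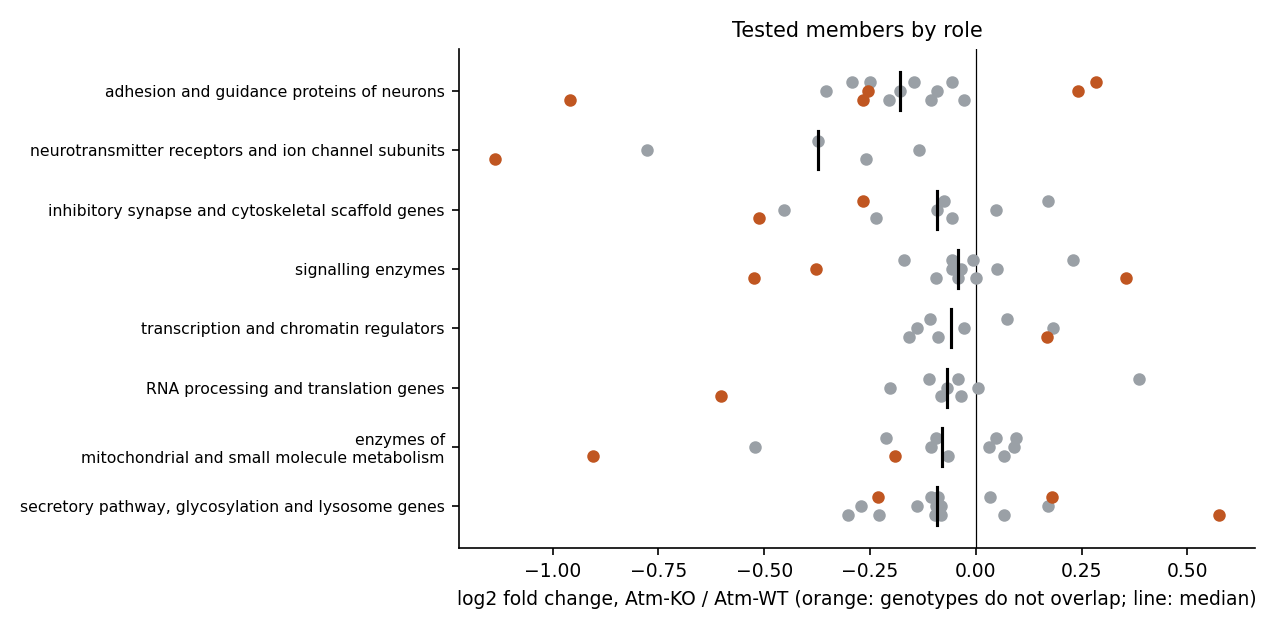
Log2 fold change (*Atm*-KO over *Atm*-WT) of tested genes in the 8 lists with tested genes, 1 point per gene, in orange where the genotypes do not overlap, with the median of each list as a line. Medians lie between -0.37 (receptors and channels, 5 genes) and -0.04 (signalling enzymes, 13 genes), against -0.05 for genes of the same classes on other chromosomes.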

How the data were processed

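RNA of frozen cerebellum was sequenced on an Illumina instrument. Per the labels and the study's methods, the authors checked reads with FastQC 0.11.9, aligned them with STAR to GRCm39 under a GENCODE annotation and deposited raw featureCounts counts per gene. Strand and pair settings were not given in the sources used here, and 67.3% to 73.3% of counts from 1 to 50 were even, so a count may be a read or a fragment. Gene identifiers were matched without version to GENCODE vM39 on GRCm39 for positions, classes and exon overlap.

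All 8 libraries, grouped by genotype label, were fitted with edgeR 4.0.16 in R 4.3.3 (filterByExpr, TMM, glmQLFit, glmQLFTest, no covariate), with Benjamini-Hochberg adjustment over 22423 genes, and the script was tested on simulated counts. CPM use TMM factors, and distance is the gap between gene bodies. The p-values measure the spread between mice together with counting error, which is relatively larger in genes of few counts. Alternatives were DESeq2 1.42.0, limma voom 3.58.1, RLE factors, 2 other filters, a 5 Mb window, protein-coding genes alone and leaving out each library. The genes, lists and thresholds were chosen with earlier results of these data known. Genes were named if they were *AI593442*, *Insyn1* or *9230112J17Rik*, if they were tested within 1 Mb of *Atm*, if they had a mean of at least 1 CPM, no overlap and 1 of the 10 smallest p in a direction, or if they had the smallest p or the highest mean CPM in a list. Promoter sequences came from RefSeq (GRCm38.p6).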

Additional observations from a re-analysis of the deposited data

Results flagged for a closer look

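In each of 90 groups of 4 libraries, formed by the named genes and the 2 genotypes, the highest and lowest library were compared with the others by the ratio of gap to range, and 6 were past Dixon's critical value where chance gives about 1 in 20 groups (4.5). *Cib2* was at 15.2 CPM in *Atm*-WT 32M, against 10.4 to 11.1 CPM in the other *Atm*-WT libraries. *Usp2* was low in the same library, at 95.7 CPM against 116 to 119 CPM. *Il10ra* was at 3.04 CPM in *Atm*-WT 13M, against 3.77 to 3.90 CPM. The other 3 were in *Atm*-KO 12M, the library with the lowest brainstem and oligodendrocyte markers. There *Fxyd6* was at 50.7 CPM against 28.1 to 31.2 CPM, *Glce* at 111 CPM against 98.9 to 100 CPM, and *Gldn* at 0.0592 CPM against 0.355 to 0.413 CPM.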

How the results depend on the processing

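The number of genes near *Atm* past both thresholds was 3 with limma voom and with RLE factors, 14 with DESeq2 (7.73%, against 4.80% of all genes), 13 with no filter on low counts (4.80% against 1.19%), 1 with at least 10 counts in every library (0.571% against 0.0103%), and 2 within 5 Mb. With at least 10 counts *9230112J17Rik* was not tested and *Insyn1* was at -0.49. It ran from 1 to 5 when a library was left out: 1 without *Atm*-WT 2M or 7M or *Atm*-KO 1M or 11M, and 5 without *Atm*-WT 13M (27 over all genes) or *Atm*-KO 12M (6 over all genes). At an adjusted p under 0.1 the number was 12, and it was 30 with DESeq2 (16.6% against 12.4%), 4 with limma voom (2.16% against 0.0268%), 23 with no filter (8.49% against 3.65%), 17 with at least 10 counts (9.71% against 4.54%) and 7 within 5 Mb. It ran from 1 to 15 over the libraries left out, with 15 without *Atm*-KO 7F (8.02% against 6.44%), 1 without *Atm*-WT 2M, *Atm*-KO 1M or *Atm*-KO 11M, 2 without *Atm*-WT 7M and 4 without *Atm*-WT 32M. Outside the 5 Mb window and the filter at 10 counts, 1 gene of each count is *9230112J17Rik*, which was kept by name. The median absolute log2 fold change was 0.23 with DESeq2 and 0.23 with no filter, and 0.15 to 0.18 over the libraries left out. The first 2 medians cover 271 genes, against 185 in the main fit (0.15), so the sets of genes differ. Signs turned for *Cul5* with at least 10 counts (0.019), for *Gldn* with limma voom (-0.21) and, when a library was left out, for *Acat1* (-0.17 to 0.015), *Cib2* (-0.185 to 0.016), *Cul5* (-0.06 to 0.052), *Gldn* (-0.175 to 0.334), *Kmt2a* (-0.131 to 0.078) and *Ncam1* (-0.082 to 0.015), and the cause was not tested. The median of all genes tested moved by at most 0.034, with no filter on low counts, and by 0.005 with RLE factors. No paired analysis was made because the labels name no litters or pairs. The genotypes share the replicate number 7, which is not said to mark a pair. Counting error is relatively larger in genes of few counts, and its part was not separated from the spread between mice. A difference below the threshold may have been missed with 4 mice a genotype.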

Other observations

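Among the genes of the window that were left out, 18 tested genes were left out by name or family, and 5 of them were at an adjusted p under 0.1 (1 higher, 4 lower), *Atm* itself among the lower ones, against 1.90% of all genes tested. Of 57 long noncoding and TEC genes 3 were (5.26%), all higher, against 109 of 5004 such genes outside the window (2.18%), 108 of them higher. Over every tested gene of the window it was 20 of 260 (7.69%), and 18 of 258 (6.98%) without *Atm* and *9230112J17Rik*. Of the 57 noncoding genes, 36 had a positive log2 fold change (median 0.26), as had 3619 of the 5004 outside the window (median 0.32), while TEC genes took 0.204% to 0.333% of counts in *Atm*-WT libraries, against 0.354% to 0.529% in *Atm*-KO libraries.

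Genes near *Atm* with too few counts for the test, and the tested predicted gene *Gm55094*, were picked after their values were seen. *Htr3a*, a serotonin-gated channel subunit, had 18, 10, 8 and 12 counts in *Atm*-WT and 0, 1, 0 and 4 counts in *Atm*-KO libraries, and *Plet1* had 6, 8, 3 and 13 against 0, 2, 2 and 0 counts. *Gm55094* had 88, 172, 0 and 50 counts in *Atm*-WT and 0, 10, 2 and 18 in *Atm*-KO libraries, a spread within *Atm*-WT that left an adjusted p of 0.155. The pseudogene *Gm6166* varied without regard to genotype, with 8, 86, 6 and 372 counts against 1, 190, 4 and 8. Of the tested genes near *Atm*, 118 of 185 shared exon bases with another gene and 32 shared more than 20%.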
